A study of Mus musculus with 12 samples.

Results

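The genes described are 8 kallikrein-related serine proteases, Klk4, Klk5, Klk6, Klk7, Klk8, Klk10, Klk11 and Klk13, taken by gene symbol from a table of 25899 genes. The table holds 27 kallikrein genes in all, so 19 others were left as the rest of the family. RNA came from the root-forming end of mandibular first molars of C57BL/6 mice at postnatal day 4. There were 6 libraries from Nfic-/- mice, which lack both copies of the transcription factor gene Nfic, and 6 from littermates with 1 intact copy (Nfic+/-). Nfic is needed for molar roots to form, and the series title places it upstream of Hedgehog signalling. No wild-type molar is among the groups, and the control mice already carry 1 disrupted allele. Library numbers run from 5 to 10 within either genotype, and equal numbers were read as littermate pairs.

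Kallikrein-related peptidases are secreted serine proteases, made as inactive precursors whose propeptide another protease removes, often in a chain in which 1 kallikrein activates the next. In teeth, KLK4 is secreted by ameloblasts at the transition to and during enamel maturation, where it clears the enamel matrix proteins that MMP20 has begun to cut. In stratified epithelia such as epidermis, KLK5, KLK7 and KLK14 cut the corneodesmosomes that hold surface cells together and are held in check by the inhibitor LEKTI, the product of Spink5, while KLK6 and KLK8 are best known from brain and also occur in skin.

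All 8 genes lie on the plus strand of a single cluster on chromosome 7 (GRCm38, GENCODE annotation), in the order Klk13 (43712567 to 43727534), Klk11 (43774604 to 43779263), Klk10 (43781035 to 43785410), Klk8 (43797577 to 43803826), Klk7 (43811294 to 43816359), Klk6 (43824499 to 43832030), Klk5 (43841971 to 43851181) and Klk4 (43881160 to 43885804). Klk11, Klk10 and Klk8, the 3 members that were higher in the Nfic-/- library of 5 or 6 of the 6 pairs, follow each other among the members with Klk9 between the last 2, and Klk4, which was lower there in 4 of 6, closes the row. Their upstream sequences are shown because Nfic encodes a nuclear factor I (NFI) protein, so the letters of its site can be looked for directly. The 250 bases before the RefSeq start (GRCm38.p6, plus strand, 5′ to 3′) are chr7:43774367-43774616 for Klk11, chr7:43780804-43781053 for Klk10, chr7:43797327-43797576 for Klk8 and chr7:43880910-43881159 for Klk4. Capitals mark the short NFI site TTGGC and the A/T-rich runs TTAAAA and TTATAA.
Klk11: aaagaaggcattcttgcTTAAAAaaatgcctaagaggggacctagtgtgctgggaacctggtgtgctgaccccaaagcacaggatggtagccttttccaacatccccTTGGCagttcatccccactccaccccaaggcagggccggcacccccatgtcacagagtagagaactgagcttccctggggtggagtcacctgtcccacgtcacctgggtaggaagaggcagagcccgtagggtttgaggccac
Klk10: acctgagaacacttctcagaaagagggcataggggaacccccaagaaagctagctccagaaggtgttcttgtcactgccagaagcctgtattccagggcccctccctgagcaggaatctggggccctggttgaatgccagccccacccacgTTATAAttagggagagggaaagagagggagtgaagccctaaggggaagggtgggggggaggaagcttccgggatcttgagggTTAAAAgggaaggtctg
Klk8: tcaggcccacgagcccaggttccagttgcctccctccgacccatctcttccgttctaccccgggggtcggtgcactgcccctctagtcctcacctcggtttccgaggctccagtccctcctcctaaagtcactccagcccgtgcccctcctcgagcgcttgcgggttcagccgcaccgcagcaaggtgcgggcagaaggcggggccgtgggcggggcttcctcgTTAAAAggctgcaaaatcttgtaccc
Klk4: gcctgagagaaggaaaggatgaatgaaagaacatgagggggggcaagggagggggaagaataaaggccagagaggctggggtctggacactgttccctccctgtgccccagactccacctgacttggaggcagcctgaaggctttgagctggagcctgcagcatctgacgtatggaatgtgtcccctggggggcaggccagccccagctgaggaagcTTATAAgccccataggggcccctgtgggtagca

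RefSeq gave 10 promoter windows for the 8 members, each running from 250 bases before to 50 after a start. The full NFI site, TTGGC followed after any 5 bases by GCCAA, was in 0 of the 10 windows on either strand, and 0.0365% of all 32851 mouse promoter windows of that length hold it. The short site TTGGC was in the first Klk11 window at -143 and in the Klk5 window at -177, counting the base before the start as -1, against 46.7% of all windows. It is part of the full site, so the searches overlap. The box TATAAA was in 0 of the 10 windows (13.6% of all), and CCAAT was in 1, the second Klk11 window (37.4% of all). The run TTAAAA began at -26 in Klk8, at -17 in Klk10, at -233 in the first Klk11 window and at -68 in the second Klk6 window, 4 of the 10 in all, and TTATAA began at -33 in Klk4 and at -99 in Klk10. These runs were picked after the windows had been read, and occur in 19.2% and 5.79% of all windows. Letters that are absent from these windows say nothing about binding of the factor elsewhere.

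The values correspond to 70.2 to 96.4 M reads per library, so that 1 read in a gene of 1 kb equals 0.0104 to 0.0142 RPKM (reads per kilobase of transcript, scaled to library size). Nfic itself was at 16.8 ± 4.42 RPKM in Nfic+/- and 11.4 ± 3.02 RPKM in Nfic-/- (SD, n = 6 each) and was lower in 6 of 6 pairs (log2 difference of RPKM + 1 -0.52, SE 0.178, limma adjusted p = 0.934 by Benjamini-Hochberg). The gene-level value does not separate a deleted part from the rest of the transcript. Klk8 shares 382 of its 1540 exon bases with an antisense transcript, 2310002F09Rik, and whether strand was used in counting is not given in the sources used here, while Klk10, Klk11 and Klk13 share 0 exon bases with it. No 50-base stretch of any member occurs in another kallikrein (0%). In bulk RNA, fewer cells of a type and less RNA per cell cannot be told apart. The labels do not say that each library came from a separate animal, and p-values measure the spread between these libraries.

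Klk10 and Klk8 were the abundant kallikreins of the day 4 molar, Klk4 came next, and the other 5 members were below 1 RPKM on average. RPKM is per length, so the levels can be ordered. Klk10 had a mean of 12.1 RPKM over the 12 libraries and Klk8 11.05 RPKM, and they changed places between libraries: Klk10 was above Klk8 in 1 of 6 Nfic+/- libraries and in 5 of 6 Nfic-/- libraries. Klk4 had a mean of 4.57 RPKM and was above Klk8 in 2 libraries, Nfic+/- 5 and Nfic+/- 7. Klk11 followed at 0.570 RPKM, under Klk4 in 12 of 12 libraries. Klk13 had a median of 0.1005 RPKM and Klk7 of 0.00998 RPKM, although 1 library raised the mean of Klk7 to 0.132 RPKM against 0.121 RPKM for Klk13. Klk5 (mean 0.00917 RPKM) and Klk6 (0.00431 RPKM) had 0 reads in 10 and 11 of the 12 libraries, which allows up to 3 reads in each, and were equal in 10 libraries. Klk4, Klk8 and Klk10 together made up 86.2% to 98.9% of the summed RPKM of the 27 kallikreins in each library, a sum of 16.9 to 39.6 RPKM.

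**Figure D1:**
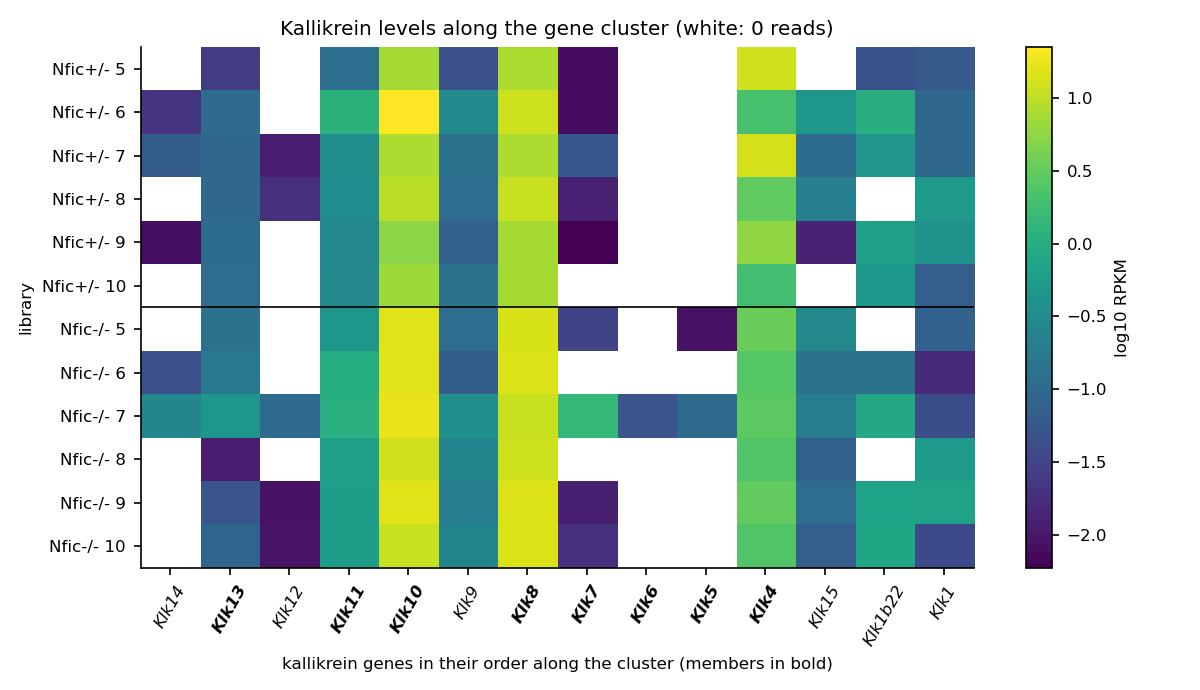
Level of the kallikrein genes that reached 5 reads in any library, as log10 RPKM, with genes in their order along chromosome 7 on the x axis, the 12 libraries on the y axis and white where 0 reads were found. Klk10, Klk8 and Klk4 are the bright columns, and library Nfic-/- 7 is the row in which Klk14, Klk13, Klk12, Klk7, Klk6 and Klk5 have values above the other libraries.

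The question of the design is what loss of the second Nfic copy does to expression in the root-forming molar. Of 12094 genes that averaged at least 1 RPKM, 0 (0%) passed at an adjusted p of 0.05 (limma with a variance trend on log2(RPKM + 1), Benjamini-Hochberg), 646 had an unadjusted p under 0.05, and the smallest adjusted p was 0.934. Without the filter, 0 of 21002 genes (0%) passed and 926 had an unadjusted p under 0.05. Weighting libraries by their quality in limma called 17 genes. Only 3 of the 8 members reached the filter (Klk4, Klk8 and Klk10), so the other 5 are given from the fit without it. The members were chosen by their RPKM in these same 12 libraries, with the genotype differences of Klk8 and Klk4 already known, so the differences below are a description and no independent evidence. None of the 3 filtered members had groups that did not overlap, a pattern found in 0.157% of genes at that level.

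Klk8, Klk10 and Klk11 were above their littermate in nearly every Nfic-/- molar. Klk8 (ENSMUSG00000064023) encodes neuropsin, a trypsin-like protease that shapes synapses in brain and acts in skin. It read 8.04, 12.1, 8.09, 11.2, 7.25 and 7.33 RPKM in Nfic+/- 5 to 10. In Nfic-/- 5 to 10 it read 13.5, 14.0, 11.2, 11.8, 14.3 and 13.9 RPKM. The null member of each pair was the higher in 6 of 6 pairs, as it was for 2.68% of genes at that level, and the groups overlapped through Nfic+/- 6. The means were 8.99 ± 2.08 and 13.1 ± 1.29 RPKM (SD, n = 6 each). The log2 difference of RPKM + 1 was 0.52 (SE 0.122, 95% interval 0.25 to 0.78, limma adjusted p = 0.934 by Benjamini-Hochberg). Within libraries 5 to 7 alone the difference was 0.43, and within 8 to 10 alone 0.60. With library weights it was 0.58 (limma, Benjamini-Hochberg adjusted p = 0.0477), the 1 alternative under which a member passed, for a gene that was chosen with its difference known.

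Klk10 (ENSMUSG00000030693) encodes a kallikrein of epithelial cells that is lost in many breast tumours. It read 7.31, 22.3, 8.06, 9.43, 5.27 and 6.60 RPKM in Nfic+/- 5 to 10, and 14.9, 14.9, 17.2, 12.4, 15.2 and 11.02 RPKM in Nfic-/- 5 to 10. The Nfic+/- library 6 held the highest value of all 12, and without it the highest Nfic+/- value, 9.43 RPKM, lay under the lowest null value. The means were 9.83 ± 6.27 and 14.3 ± 2.21 RPKM (SD, n = 6 each), and the null library was higher in 5 of 6 pairs, a count of 5 or 6 that 13.3% of genes at that level reached. The log2 difference of RPKM + 1 was 0.63 (SE 0.250, 95% interval 0.09 to 1.17, limma adjusted p = 0.934 by Benjamini-Hochberg), with 0.46 within libraries 5 to 7 alone and 0.80 within 8 to 10 alone.

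Klk11 (ENSMUSG00000067616), whose product is a trypsin-like protease found in skin, brain and prostate, was at a lower level with a similar profile. It read 0.122, 1.17, 0.332, 0.322, 0.273 and 0.289 RPKM in Nfic+/- 5 to 10, from 13 to 125 reads. In Nfic-/- 5 to 10 it read 0.452, 0.966, 1.10, 0.618, 0.589 and 0.605 RPKM, from 59 to 127 reads. As with Klk10, Nfic+/- 6 was far above the other controls, and in the other 5 pairs the null library was the higher. The means were 0.417 ± 0.375 and 0.722 ± 0.253 RPKM (SD, n = 6 each), with 5 of 6 pairs higher. A count of 5 or 6 was reached by 10.1% of genes with any read and by 13.3% of genes averaging at least 1 RPKM. The first share includes genes with pairs tied at 0 reads, whereas Klk11 had reads in 12 of 12 libraries. The log2 difference of RPKM + 1, which understates the change of a gene this low, was 0.30 (SE 0.150, limma without the filter, Benjamini-Hochberg adjusted p = 0.99997). On log2 RPKM without a pseudocount it was 1.08.

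Nfic+/- 6 decided whether the groups overlapped for these 3 genes. When it was left out, a step added after its levels had been seen, the lowest null library was above every control for Klk8, Klk10 and Klk11. The same held for 0.934% of genes averaging at least 1 RPKM and for 0.6% of genes with any read. For those genes no library had been picked by their levels, so the shares cannot measure how rare the separation of these 3 is. With all controls kept, the groups overlapped for each of the 3. For Klk8 the margin was small, since the highest remaining control and the lowest null library both round to 11.2 RPKM. The Nfic+/- means of the remaining 5 libraries were 8.37 ± 1.60 RPKM for Klk8, 7.34 ± 1.56 RPKM for Klk10 and 0.268 ± 0.0849 RPKM for Klk11 (SD, n = 5). Several list sums of that library lay at an end of the control range, and 3 are given here. Its dental epithelium sum was the highest of the controls (3083 RPKM against 1989 to 2517 RPKM) but lay within the Nfic-/- range, 2402 to 3593 RPKM. Its enamel sum was the lowest (36049 RPKM against 50484 to 142047 RPKM). Its mast cell and neutrophil sum was the highest (163 RPKM against 32.6 to 144 RPKM). The enamel sum and the mast cell and neutrophil sum lay outside the Nfic-/- ranges. The epithelial genes Shh and Epcam were at 235 and 64.4 RPKM there, the highest of all 12 libraries, and were named after their values had been seen. The part of these levels in its Klk10 and Klk11 values was not tested. Without that library the limma differences were 0.60, 0.88 and 0.43 on the log2(RPKM + 1) scale.

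**Figure D2:**
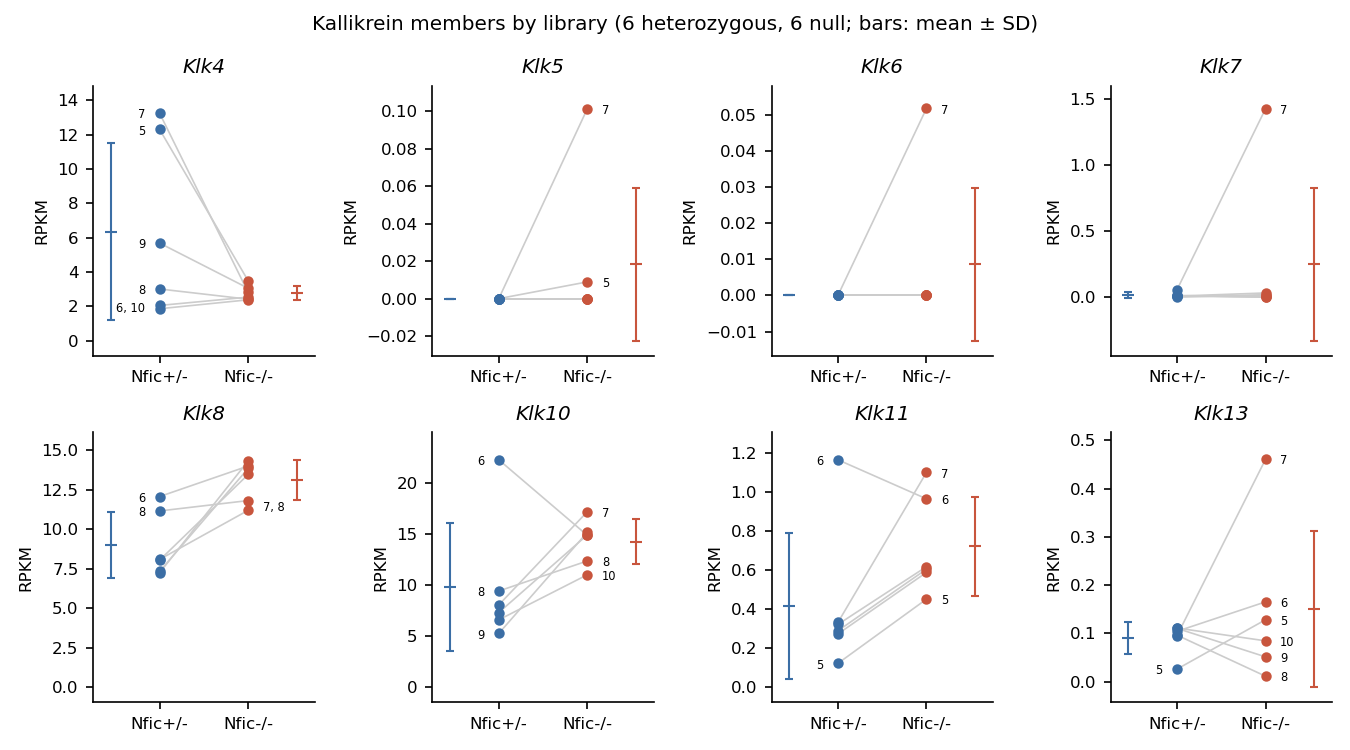
RPKM of each of the 8 members in the 6 Nfic+/- (blue) and 6 Nfic-/- (red) libraries, with grey lines between equal numbers, library numbers beside the points that stand clear, and mean ± SD at the sides. Klk8 is higher at the Nfic-/- end of 6 of 6 lines, Klk10 and Klk11 at that end of all lines but number 6, Klk4 is spread from 1.86 to 13.2 RPKM among the Nfic+/- libraries, and Klk5, Klk6, Klk7 and Klk13 stand out in Nfic-/- 7.

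Genes of the dental epithelium had differences of the same sign as these 3 proteases. Of 18 such genes, 18 were measured and tested, 18 had a positive difference and 0 passed limma's threshold, with a median log2 difference of 0.30 against -0.00282 over all 12094 genes, of which 5914 were above 0. Among them, the basal keratin genes Krt5 and Krt14 were at 592 and 507 RPKM in Nfic+/- and at 758 and 691 RPKM in Nfic-/- on average. The summed level of the list ran from 1989 to 3083 RPKM in Nfic+/- and from 2402 to 3593 RPKM in Nfic-/-, with no gene at 0. The odontoblast list ran the other way, with 9 of 10 tested genes below 0, a median of -0.46 and sums of 4143 to 6265 RPKM in Nfic+/- and 2703 to 5252 RPKM in Nfic-/-. The part of these tissue levels in the differences of Klk8, Klk10 and Klk11 was not tested.

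Over the 12 libraries Klk10 followed Klk11, Klk8 and the epithelial level, while the relations of Klk8 with Klk11 and with the epithelial level did not pass. Of 52 relations computed among the members and between members and 3 list levels, 5 had a Pearson r with a Benjamini-Hochberg adjusted permutation p under 0.05. Klk10 and Klk11 had r = 0.87 (permutation p = 0.00024, adjusted 0.0125) and Spearman rho = 0.87 (permutation p = 0.0004, adjusted 0.0208). Without the 2 libraries farthest from the median of Klk10, Nfic+/- 6 and 9, r was 0.84, and it was 0.91 within Nfic+/- and 0.50 within Nfic-/-. Klk8 and Klk10 had r = 0.82 (permutation p = 0.00157, adjusted 0.0272) and rho = 0.76 (permutation p = 0.00627, adjusted 0.109), with r = 0.67 without Nfic+/- 9 and 10. This relation was held by the controls, since r was 0.88 within Nfic+/- and -0.24 within Nfic-/-. Klk10 and the dental epithelium level had r = 0.83 (permutation p = 0.00137, adjusted 0.0272) and rho = 0.79 (permutation p = 0.00311, adjusted 0.0809). Here r was 0.92 without Nfic+/- 6 and 9, 0.84 within Nfic+/- and 0.98 within Nfic-/-. Klk11 and the epithelium level had r = 0.77 (permutation p = 0.00386, adjusted 0.0401) and rho = 0.66 (permutation p = 0.0214, adjusted 0.204). Klk8 and Klk11 had r = 0.65 (permutation p = 0.0242, adjusted 0.105) and rho = 0.68 (permutation p = 0.0181, adjusted 0.204), with r = 0.73 within Nfic+/- and -0.44 within Nfic-/-. Klk8 and the epithelium level had r = 0.65 (permutation p = 0.0266, adjusted 0.106) and rho = 0.55 (permutation p = 0.0703, adjusted 0.312), with r = 0.85 within Nfic+/- and -0.34 within Nfic-/-. Within libraries 5 to 7 and within 8 to 10, r was 0.91 and 0.88 for Klk10 with Klk11, 0.82 and 0.94 for Klk8 with Klk10, 0.87 and 0.70 for Klk10 with the epithelium level, and 0.81 and 0.48 for Klk11 with it. Equal numbers were read as littermates, so the 12 points cannot be taken as fully independent. Since the members were chosen with their levels known, these p-values describe the libraries only.

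**Figure D3:**
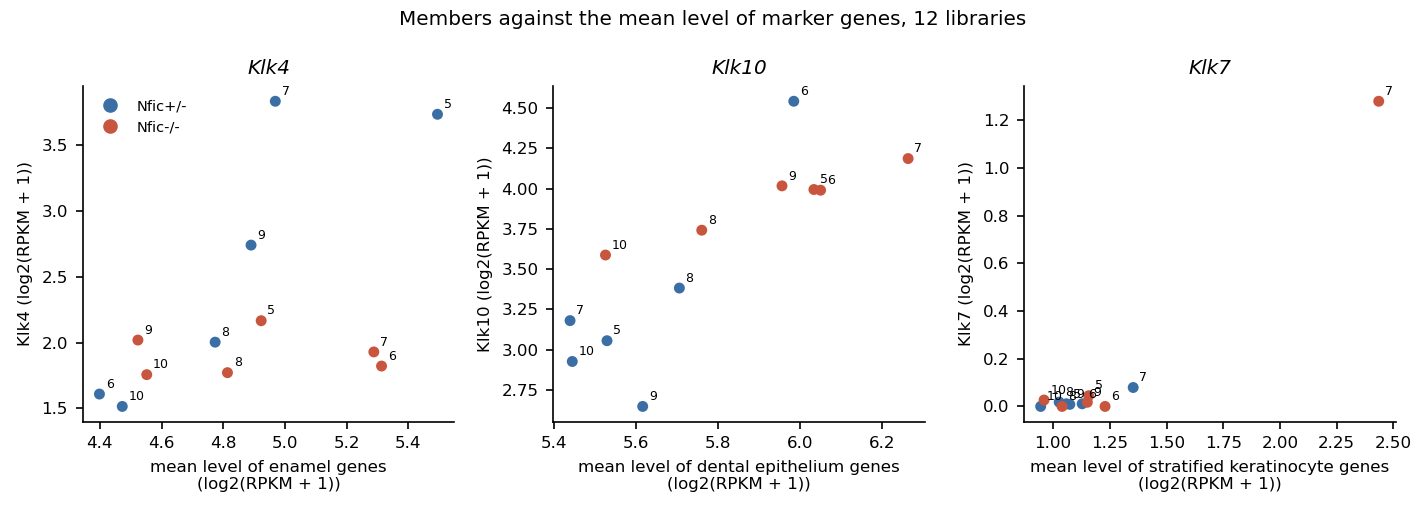
Level of Klk4, Klk10 and Klk7 (y axis, log2(RPKM + 1)) against the mean log2(RPKM + 1) of enamel, dental epithelium and stratified keratinocyte genes (x axis) in the 6 Nfic+/- (blue) and 6 Nfic-/- (red) libraries, labelled by number. Klk10 follows the dental epithelium level (r = 0.83), Klk4 is high at numbers 5, 7 and 9 of Nfic+/- alone, and the Klk7 relation rests on Nfic-/- 7 and Nfic+/- 7.

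The 5 genes whose profile over the 12 libraries was most like that of Klk8, among 10504 genes averaging at least 1 RPKM that are neither members nor clones, were Rab5c (r = 0.955), Ergic3 (r = 0.948), Fxyd4 (r = 0.937), Ccdc25 (r = 0.927) and Cox7a2 (r = 0.919). Fxyd4, for example, was at 13.1 ± 3.95 RPKM in Nfic+/- and 20.1 ± 2.79 RPKM in Nfic-/- (SD, n = 6 each). These r are the highest of many and carry no test.

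Klk4, the enamel protease, had a lower mean in the null molars, and the difference lay in 3 control libraries. Klk4 (ENSMUSG00000006948) read 12.3, 2.05, 13.2, 3.01, 5.68 and 1.86 RPKM in Nfic+/- 5 to 10. In Nfic-/- 5 to 10 it read 3.49, 2.53, 2.81, 2.41, 3.05 and 2.38 RPKM. The controls were spread over both sides of the nulls, with Nfic+/- 5, 7 and 9 above every null library and Nfic+/- 6 and 10 below every one, while the null libraries lay close together. The means were 6.36 ± 5.16 and 2.78 ± 0.431 RPKM (SD, n = 6 each), and the null library was lower in 4 of 6 pairs, a count of 4 or more that 24.1% of genes at that level reached. The log2 difference of RPKM + 1 was -0.66 (SE 0.371, 95% interval -1.46 to 0.14, limma adjusted p = 0.973 by Benjamini-Hochberg). Within libraries 5 to 7 alone the difference was -1.09 and within 8 to 10 alone -0.24, and it was -0.43 without Nfic+/- 5 and -0.41 without Nfic+/- 7.

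None of the tested enamel genes passed between genotypes, while in the controls several had the same high and low libraries as Klk4. Of 13 enamel matrix and maturation genes in the table, 9 were tested, 7 had a positive difference, 2 a negative one and 0 passed limma's threshold, with a median log2 difference of 0.19. Amelx, which encodes amelogenin, the main enamel matrix protein and a substrate of KLK4, was at 60501 ± 27370 RPKM in Nfic+/- and 69937 ± 22429 RPKM in Nfic-/- (SD, n = 6 each), with the highest value, 106179 RPKM, in Nfic+/- 5. Ambn and Enam, which encode the matrix proteins ameloblastin and enamelin, averaged 19664 and 1442 RPKM in Nfic+/- and 22059 and 1714 RPKM in Nfic-/-. Mmp20, the protease that acts on the matrix before KLK4, averaged 193 and 202 RPKM. In Nfic+/- 5 to 10 Mmp20 read 283, 105, 225, 163, 237 and 145 RPKM, so that, as for Klk4, libraries 5, 7 and 9 were the highest and 6 and 10 the lowest. The same 3 highest and 2 lowest controls were found for Amelx and Ambn, although Ambn in libraries 9 and 8 was nearly equal (21196.6 and 21192.5 RPKM). Enam had the same 2 lowest controls, but library 8 (1436 RPKM) was above library 7 (1375 RPKM). Odam had the same 3 highest, with libraries 10 and 8 the lowest (19.5 and 28.5 RPKM). In Nfic-/- 6, where Klk4 was at 2.53 RPKM, Amelx was at 102366 RPKM.

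Amtn and Odam, a pair of later-stage enamel genes, peaked in different libraries. Amtn, which encodes amelotin of the maturation-stage basal lamina, was at 69.7 RPKM in Nfic+/- 5 and 7.97 RPKM in Nfic+/- 7, and at 0.250 to 7.25 RPKM in the other 10 libraries. Those are 2 of the 3 control libraries in which Klk4 was high. The other, Nfic+/- 9, was the next highest control for Amtn at 1.37 RPKM, and Nfic+/- 10 and 6 were the lowest at 0.480 and 0.370 RPKM. In Nfic-/- 6 and 7, however, Amtn was at 6.34 and 7.25 RPKM, while Klk4 was at 2.53 and 2.81 RPKM. Odam, a gene of maturation-stage ameloblasts and junctional epithelium, was at 72.2 RPKM in Nfic+/- 5 but was highest, at 270 RPKM, in Nfic-/- 7, where Klk4 was low. Amtn and Odam were chosen after their values had been seen. Klk4 and the mean enamel level had r = 0.54 (permutation p = 0.0705, adjusted 0.175) and rho = 0.62 (permutation p = 0.0346, adjusted 0.257), and r was 0.87 within Nfic+/-, 0.00404 within Nfic-/- and 0.33 without Nfic+/- 5 and 7. Within libraries 5 to 7 it was 0.38 and within 8 to 10 it was 0.68. Klk4 had negative coefficients with Klk8 (r = -0.56), Klk10 (r = -0.51) and Klk11 (r = -0.60), with permutation p of 0.0551, 0.0915 and 0.038 and adjusted p of 0.175, 0.183 and 0.132, and rho of -0.26, -0.29 and -0.52. The 5 genes most like Klk4 were Adamtsl2 (r = 0.825), Hpse (r = 0.818), Rcan2 (r = 0.794), Cpz (r = 0.776) and Wisp1 (r = 0.752).

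The members Klk7, Klk5, Klk6 and Klk13 had at most 12 reads in any library other than Nfic-/- 7. Klk7 (ENSMUSG00000030713) encodes a chymotrypsin-like protease that cuts corneodesmosin in epidermis. It had 1, 1, 7, 2, 1 and 0 reads in Nfic+/- 5 to 10 and 5, 0, 199, 0, 2 and 3 reads in Nfic-/- 5 to 10. Its level in Nfic-/- 7 was 1.43 RPKM, which was 25.3 times the next library, and that next library was its littermate Nfic+/- 7 at 0.0566 RPKM. Klk5 (ENSMUSG00000074155), the trypsin-like protease that activates KLK7 in skin, had 10 reads in Nfic-/- 7, 1 in Nfic-/- 5 and 0 in the other 10 libraries. Klk6 (ENSMUSG00000050063), a protease of oligodendrocytes and of squamous epithelia, had 6 reads in Nfic-/- 7 and 0 in the other 11. Klk13 (ENSMUSG00000054046), expressed in squamous epithelium, had 2, 8, 7, 9, 11 and 11 reads in Nfic+/- 5 to 10 and 12, 12, 38, 1, 5 and 8 in Nfic-/- 5 to 10, or 0.461 RPKM in Nfic-/- 7.

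Nfic-/- 7 was thus the highest library for these 4 of the 8 members. Klk5 and Klk6 reached 5 reads there alone, so their peak carries no comparison with other genes. Klk7 and Klk13 had 5 or more reads elsewhere too, and Nfic-/- 7 was the highest library for 5.94% of the 18739 genes with 5 or more reads in any library. It was at least 2 times every other library, with 0 to 2 reads set to 3, for Klk7 and Klk13, which held for 0.768% of those genes. Against that floor Klk5 was 2.93 times and Klk6 1.76 times. The same library led for the neighbours Klk14 (26 reads, 0.256 RPKM, 3.85 times the next), Klk12 (10 reads) and Klk9 (43 reads, 0.365 RPKM), while Klk8, Klk10, Klk11 and Klk4 did not peak there. Klk14 and Klk12 were named after their values had been seen. With Nfic-/- 7 in the fit, the log2(RPKM + 1) differences of Klk7, Klk13, Klk5 and Klk6 were 0.21, 0.07, 0.02 and 0.01 (limma without the filter, Benjamini-Hochberg adjusted p = 0.99997 for each). Without it the fit gave -0.000971, -0.00451, -0.000209 and -0.000396. The fit holds a library of 0 reads at 0.9 reads. Klk6 then had 0 reads in all 11 libraries left, and Klk5 had 1 read, in Nfic-/- 5. The minus signs of Klk5 and Klk6 therefore come from that floor and show no reversal.

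Genes of cornifying epithelium were high in the same library. Of 20 stratified keratinocyte genes, all in the table and none at 0 throughout, 17 were highest in Nfic-/- 7. The exceptions, named after their values had been seen, were Krt10, Tgm1 and Sprr1b. They were at 10.4, 2.11 and 0.0153 RPKM there and reached 10.6, 5.47 and 0.0330 RPKM elsewhere. The summed level of the 20 genes was 149 RPKM in Nfic-/- 7, 30.0 to 46.6 RPKM in Nfic+/- and 33.8 to 56.6 RPKM in the other 5 Nfic-/- libraries. Krt13 and Krt4, the keratin pair of the suprabasal layers of oral mucosa, were at 26.6 and 18.9 RPKM in Nfic-/- 7 and next highest in Nfic+/- 7, at 4.76 and 3.53 RPKM, chosen after their values had been seen. Cdsn, the corneodesmosin gene whose product KLK5 and KLK7 cut, was at 0.501 RPKM in that library and at most 0.0939 RPKM elsewhere. It and Spink5 were likewise named after their values had been seen. Spink5, whose product inhibits KLK5, KLK7 and KLK14, was at 0.479 RPKM and at most 0.0708 RPKM elsewhere, with that next value in Nfic+/- 7. Klk7 and the keratinocyte level had r = 0.97 (permutation p = 0.00359, adjusted 0.0401) but rho = 0.46 (permutation p = 0.138, adjusted 0.363), and r was 0.10 without Nfic-/- 7 and Nfic+/- 7, so the relation rests on those 2 libraries. It was 0.99 within libraries 5 to 7 and 0.09 within 8 to 10. The part of keratinised epithelium in these kallikrein reads was not tested.

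Among the genes around the proteases, 0 of the tested activators, inhibitors and substrates passed limma's threshold. Of 11 genes for proteases that can activate kallikreins, 7 were tested and 5 were above 0, with a median log2 difference of 0.11. Mmp20 is also in the enamel list, so the lists overlap. Among the 7, Mep1b ran from 0 to 5.74 RPKM and was higher in the null library of 1 pair and lower in that of 1. It was named after its values had been seen. The highest were Mmp20, at 197 RPKM over the 12 libraries, St14, which encodes the membrane protease matriptase and was at 15.2 ± 3.29 RPKM in Nfic+/- and 18.8 ± 2.65 RPKM in Nfic-/-, and Ctsc. Ctsc encodes cathepsin C, which activates pro-KLK4, and was at 3.49 ± 0.933 and 2.67 ± 1.15 RPKM. Plau, the urokinase gene, was at 2.43 and 2.62 RPKM.

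Of 11 inhibitor genes, 4 were tested, 2 on each side of 0, with a median of 0.04. Spint2 and Spint1, which encode the Kunitz-type inhibitors of matriptase and hepsin-like proteases, were at 107 ± 25.2 and 13.2 ± 1.83 RPKM in Nfic+/- and 129 ± 13.1 and 15.1 ± 2.70 RPKM in Nfic-/-. Serpinb6a and Slpi averaged 7.58 and 1.82 RPKM. Of 14 genes for substrates and a receptor together, 7 were tested, 6 were above 0, and the median was 0.24. Over all 12094 genes tested, 5914 were above 0. The 6 include Amelx and Enam, which are also in the enamel list, and the related genes Dsg1a, Dsg1b and Dsg1c. Fn1, the fibronectin gene, was the 1 below 0, at 26.5 ± 11.6 RPKM in Nfic+/- and 18.6 ± 11.3 RPKM in Nfic-/-. Dsg1a, whose desmoglein is cut in skin, was at 9.06 ± 1.74 and 11.8 ± 1.99 RPKM, and F2rl1, the gene of the protease-activated receptor PAR2 and named as the receptor of the list after its value had been seen, at 1.94 ± 0.551 and 2.47 ± 0.588 RPKM (SD, n = 6 each).

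**Figure D4:**
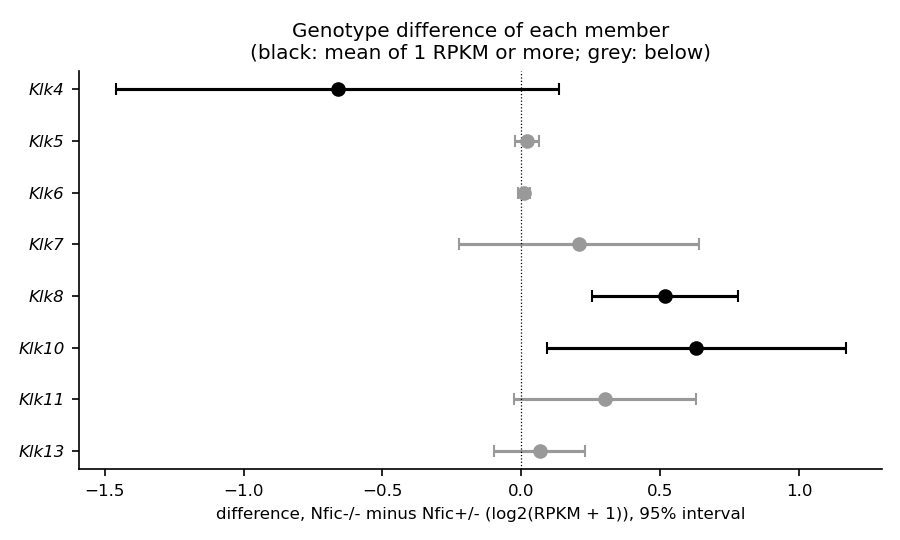
Log2(RPKM + 1) difference of each of the 8 members, Nfic-/- minus Nfic+/-, with the 95% interval from limma (6 libraries a group), in black for members with a mean of 1 RPKM or more and in grey for the others. Klk8 and Klk10 lie at 0.52 and 0.63 with intervals above 0 before adjustment over all genes, and Klk4 at -0.66 has the widest interval.

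Of the 19 other kallikreins, 4 had a mean of 0.1 RPKM or more, 13 never exceeded 3 reads in a library, and the other two were Klk14 and Klk12. Klk9, between Klk10 and Klk8, averaged 0.169 RPKM, and its null library was the higher in 5 of 6 pairs. Klk15 averaged 0.138 RPKM and peaked at 26 reads in Nfic+/- 6, the library in which Klk10 and Klk11 also peaked. Klk1b22, a gene of the tissue kallikrein group, averaged 0.422 RPKM and had 0 reads in Nfic+/- 8, Nfic-/- 5 and Nfic-/- 8, and 13.3% of its 50-base stretches occur in another kallikrein. Klk1, the tissue kallikrein gene, averaged 0.216 RPKM with 33 to 57 reads in libraries 8 and 9 of both genotypes and 1 to 6 reads elsewhere. Those 4 libraries also held intestinal transcripts, with a summed level of 147 to 197 RPKM over 14 intestine genes against 0.256 to 0.673 RPKM in the other 8. Whether the Klk1 reads come with them was not tested. None of the 8 members was confined to those libraries, and 6 of 14 salivary gland genes had 0 reads throughout, with a summed level of 0.120 to 0.964 RPKM.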

How the data were processed

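Gene levels in 12 libraries, 6 from Nfic+/- and 6 from Nfic-/- molars, came from 1 table deposited by the authors as RPKM. Reads were aligned with TopHat2 to mm10, per the submitters' processing notes, and neither counting tool nor annotation is given in the sources used here. Values in the deposited table are log2 RPKM, with genes of 0 reads held at 0.9 reads, as the values show. They were turned back to RPKM. Genes of 0 reads were set to 0 for levels, pair counts and relations, and kept at 0.9 reads in the limma fits. Of 5280 genes whose lowest library was under 5 reads, 100% came out as whole reads within 0.06 reads. The reads of Klk4, Klk8 and Klk10 are approximate, from annotated length.

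Log2(RPKM + 1) was compared between genotypes with limma 3.58.1 (R 4.3.3, variance trend, genotype as the only term), over 12094 genes averaging at least 1 RPKM, and adjusted by Benjamini-Hochberg at 0.05. Genes below that came from the same fit over 21002 genes with a read in any library. Relations between libraries used 100000 permutations, 2-sided, in Python 3.11.15 with scipy 1.17.1. The procedure was tested on simulated data. Identifiers of 24987 genes matched GENCODE M21, and those of 912 did not.

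The members, lists and tests were chosen with earlier results of these data known. Genes named are the members, other kallikreins with a mean of 0.1 RPKM or more, up to 4 of the highest members of each list, the 5 genes most like Klk4 and Klk8, and Nfic, besides those said to be chosen after their values were seen. The series describes 6 littermate pairs and no label states the pairing outright. Deviations of libraries 5 to 10 from their group means correlated with those of the equal number at r = 0.492, 0.00502, 0.310, 0.667, 0.688 and 0.802. For Nfic+/- 5, 6 and 7 an Nfic-/- library of another number correlated more highly. Alternatives were other pseudocounts, filters and scalings, a replicate block, library weights, other variance models, and leaving libraries out.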

Additional observations from a re-analysis of the deposited data

Results flagged for a closer look

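In 8 cases 1 library of a member stood apart from the other 5 of its genotype by the gap test of Dixon (the gap to the nearest library over the range of the group). The test picks about 1 group in 20 by chance where values are normally distributed. That rate does not hold for values near 0: Klk6 in Nfic-/- had reads in 1 library alone, which fixes its gap share at 1. Library Nfic-/- 7 was the high one for Klk7 at 1.43 RPKM, Klk13 at 0.461 RPKM, Klk5 at 0.101 RPKM and Klk6 at 0.0517 RPKM, the last from 6 reads. Its littermate Nfic+/- 7 was the high control for Klk7, at 0.0566 RPKM from 7 reads. Nfic+/- 6 was the high control for Klk10, at 22.3 RPKM, and for Klk11, at 1.17 RPKM. Nfic+/- 5 was the low control for Klk13, at 0.0262 RPKM from 2 reads. Libraries recur among the 8 cases, so they are not independent of each other.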

How the results depend on the processing

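Over 28 alternatives, the count of genes called stayed at 0 in 27 and was 17 with library weights, where 2263 genes had an unadjusted p under 0.05. Klk8 kept its sign in 28, from 0.38 to 0.60, and passed with library weights alone (0.58, limma adjusted p = 0.0477). Klk10 kept its sign in 28 (0.45 to 0.91), Klk4 in 27 (-1.09 to -0.24) and Klk11 in 26 (0.08 to 1.08). Klk13 reversed to -0.0767 in libraries 8 to 10 and to -0.00451 without Nfic-/- 7. Without that library the fit gave -0.000209, -0.000396 and -0.000971 for Klk5, Klk6 and Klk7. These signs rest on few reads or, for Klk6, on none, since a library of 0 reads is kept at 0.9 reads in the fit.

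Leaving out 1 library at a time gave 0 to 0 genes called and differences of 0.47 to 0.60 for Klk8, 0.50 to 0.88 for Klk10, 0.24 to 0.43 for Klk11, -0.87 to -0.41 for Klk4, -0.00451 to 0.10 for Klk13, -0.000209 to 0.0254 for Klk5, -0.000396 to 0.0123 for Klk6 and -0.000971 to 0.253 for Klk7. With the littermate pair as a replicate block, 0 genes passed and 981 had an unadjusted p under 0.05. Under the block the differences of Klk8, Klk10, Klk4 and Klk11 were 0.52, 0.63, -0.66 and 0.30, with limma adjusted p = 0.306, 0.486, 0.597 and 0.568, and no call changed. Members under 1 RPKM have no value under the filters, and Klk4 none at a mean of 5 RPKM. A few reads decide the values of Klk5, Klk6 and Klk13, and the 6 libraries a group limit the precision of the rest.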
